A study of Homo sapiens with 21 samples.

Results

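Tight junctions are the seals between epithelial cells, and 9 genes that build them were followed through 21 RNA-seq libraries: the claudins CLDN1, CLDN4, CLDN7 and CLDN12, occludin (OCLN), tricellulin (MARVELD2), junctional adhesion molecule A (F11R) and the scaffolds ZO-1 (TJP1) and ZO-3 (TJP3). They were chosen by gene symbol from 20970 genes with a row in any of 4 tables of TMM-normalized CPM, that is, read counts scaled to library size (counts per M reads) and corrected by the trimmed mean of M values. All 9 had a row in each of the 3 FADU tables and 8 in the BFTC909 table, and TJP3 in BFTC909 cells was not analysed here. FADU is a human head and neck squamous carcinoma line, and BFTC909 (BFTC-909 in the labels) is a human line from a transitional cell carcinoma of the renal pelvis. In each line, 2 libraries of Scramble-si cells at 18% O2 (normoxia), 2 of Scramble-si cells at 1% O2 (hypoxia) and 2 of METL4-si cells at 1% O2 were made, each after 18 h, and the last group is written METTL4-si below. METTL4 is an enzyme that methylates adenine in DNA. FADU cells at 18% O2 carrying a control vector, a METTL4 vector (METTL4-OE) or a vector for the long noncoding RNA RP11-390F4.3 gave 2 libraries each. FADU cells at 1% O2 gave 1 library of a wild-type CRISPR control and 1 from each of 2 prime-edited clones with a changed DPPW catalytic motif of METTL4 (METTL4-DPPW-mut), so that a clone and the mutation cannot be told apart. The overexpressing cells were stable lines. Nothing in the sources says that the libraries of a group came from separate cultures, so p-values measure the spread between these libraries, which may be technical.

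Claudins are small membrane proteins whose extracellular loops meet those of the neighbouring cell, close the space between the cells and decide which ions pass. Occludin lies in the same strands, tricellulin at the points where the corners of cells meet, and F11R is an immunoglobulin-type adhesion protein of the same region. TJP1 and TJP3 bind the tails of these proteins inside the cell and tie them to actin. In carcinoma cells the loss of such junctions is a known part of the epithelial-mesenchymal transition, in which repressors of the Snail and ZEB families bind E-boxes in junction genes.

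The reference promoters of 3 claudins that changed in the comparisons below and of MARVELD2 are shown because both repressors and the hypoxia factors read short words in such regions. Each is the 250 bases before a transcription start in RefSeq (build GRCh38.p14, 5′ to 3′ on the strand of the gene), with CACCTG or its reverse complement CAGGTG (E-box) and ACGTG or CACGT (core of the hypoxia response element) in capitals. The windows lie at chr3:190322447-190322696 on the minus strand (CLDN1), chr7:73830746-73830995 on the plus strand (CLDN4), chr17:7262479-7262728 on the minus strand (CLDN7, the downstream one of its 2 entries) and chr5:69414866-69415115 on the plus strand (MARVELD2).
CLDN1: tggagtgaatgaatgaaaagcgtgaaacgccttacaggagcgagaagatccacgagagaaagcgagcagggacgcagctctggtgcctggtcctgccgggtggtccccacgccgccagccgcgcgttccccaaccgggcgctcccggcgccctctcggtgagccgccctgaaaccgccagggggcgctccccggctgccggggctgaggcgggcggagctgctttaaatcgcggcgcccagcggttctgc
CLDN4: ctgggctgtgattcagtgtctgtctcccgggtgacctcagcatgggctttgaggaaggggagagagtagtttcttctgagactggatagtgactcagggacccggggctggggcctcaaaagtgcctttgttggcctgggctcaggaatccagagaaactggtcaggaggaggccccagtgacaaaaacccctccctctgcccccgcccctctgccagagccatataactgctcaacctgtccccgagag
CLDN7: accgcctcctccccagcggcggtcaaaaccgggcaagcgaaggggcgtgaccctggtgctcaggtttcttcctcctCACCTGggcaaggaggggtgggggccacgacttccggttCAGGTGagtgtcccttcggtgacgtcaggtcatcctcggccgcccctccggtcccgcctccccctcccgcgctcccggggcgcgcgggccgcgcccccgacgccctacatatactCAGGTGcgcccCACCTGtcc
MARVELD2: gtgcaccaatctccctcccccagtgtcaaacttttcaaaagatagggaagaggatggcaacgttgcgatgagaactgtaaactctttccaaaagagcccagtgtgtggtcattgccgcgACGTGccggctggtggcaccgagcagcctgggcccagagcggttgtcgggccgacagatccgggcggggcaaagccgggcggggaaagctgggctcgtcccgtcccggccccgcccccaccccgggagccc
The CLDN7 window held the E-box word at 4 places, 174, 135, 20 and 9 bases before the start, and the MARVELD2 window held the hypoxia word 131 bases before it. Neither word was found in the CLDN1, CLDN4 and CLDN12 windows. RefSeq entries matched 8 of the 9 members with 14 windows, of which 5 windows of 4 members (CLDN7, OCLN, TJP1, TJP3) held the E-box word and 3 windows of 3 members (MARVELD2, OCLN, TJP3) the hypoxia word. Among all 35116 windows of this length the shares were 17.5% and 18.5%. CAGCTG was in 0 of the 14 windows and in 14.0% of all, and the grainyhead word AACCGGTT in 0 of the 14 and in 0.117% of all. A word in a window is a description and not a bound site.

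The members differ in level and in place. In build GRCh37 with GENCODE v44 lifted to it, MARVELD2 (chromosome 5, 68710892 to 68740157) and OCLN (chromosome 5, 68788119 to 68853931) follow each other on the plus strand, and CLDN4 (73213872 to 73247020) and CLDN12 (90013035 to 90142716) lie on the plus strand of chromosome 7. CLDN1 lies at 190023496 to 190040235 on chromosome 3, CLDN7 at 7163222 to 7167302 on chromosome 17, F11R at 160965001 to 160991133 on chromosome 1 and TJP1 at 29991571 to 30261118 on chromosome 15, all on the minus strand, and TJP3 at 3708360 to 3750811 on the plus strand of chromosome 19. Every value is a sum over the exons of a gene. On the level per kilobase of annotated exon, normoxic FADU cells held CLDN7 highest (34.2 ± 0.0589 CPM per kb, SD, n = 2), then TJP1 (19.9 ± 0.00742), F11R (16.8 ± 1.87), CLDN1 (13.3 ± 0.242), MARVELD2 (10.4 ± 0.462), CLDN4 (8.16 ± 0.114), CLDN12 (6.23 ± 0.410), OCLN (2.84 ± 0.0291) and TJP3 (0.958 ± 0.320). No neighbours in this order overlapped between their 2 libraries. Normoxic BFTC909 cells held CLDN1 highest (32.5 ± 0.117 CPM per kb), followed by TJP1 (21.5 ± 0.0905) and CLDN12 (7.33 ± 0.180), while MARVELD2 (0.741 ± 0.131), F11R (0.316 ± 0.0218), CLDN7 (0.2003 ± 0.0215), OCLN (0.115 ± 0.0328) and CLDN4 (0.0786 ± 0.0101) all stood below 1. These neighbours did not overlap either. The tables of the lines were scaled separately, so levels are set side by side and not tested. F11R shares 1853 of its 5061 exon bases with the readthrough gene ENSG00000270149 on the same strand, CLDN12 shares 531 with PTTG1IP2, 347 with GTPBP10 and 201 with CDK14, CLDN7 shares 269 with ENSG00000262302, and OCLN and CLDN7 have the pseudogenes OCLNP1 and CLDN7P1, so their counts are less certain.

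Several libraries stood apart before any comparison. METTL4 RNA in FADU libraries with the METTL4-si label was 24.2 and 27.1 CPM and thus no lower than the hypoxic controls (26.6 and 25.3), with a log2 difference of -0.02 (adjusted p = 0.900). In BFTC909 it was 14.4 and 12.2 against 19.0 and 15.6 (log2 difference -0.36, adjusted p = 0.0717). The groups are therefore called by their label. The hypoxia-induced genes CA9 and SLC2A1 rose with hypoxia in both lines and fell in the libraries labelled METTL4-si, CA9 in FADU from 31.0 and 37.8 to 1.87 and 2.22, close to the normoxic 2.33 and 2.55. Luminal breast markers were high in 1 library of 3 groups: GATA3 was 41.1 in FADU normoxia replicate 1 against 2.19 in replicate 2, 216 in FADU METTL4-si replicate 1 against 2.63, and 128 in BFTC909 METTL4-si replicate 2 against 0.844, and TFF1 was 26.2 and 135 in the first and second of these and 0 in the 4 other FADU siRNA libraries. The summed level of the 11 of 16 such markers with a row was 365 and 184 in FADU normoxia, 151 and 160 in hypoxia and 1228 and 203 in METTL4-si. For the 5 of 16 with a row in BFTC909 it was 365 and 379, 462 and 475, and 476 and 841. BFTC909 cells carried little of the general epithelial marker EPCAM (0.895 to 1.69 CPM in 5 libraries, 26.5 in METTL4-si replicate 2) and much of the kidney tubule marker PAX8 (322 to 384). Of 4 kidney tubule markers 2 had a row, PAX8 and CUBN, with sums of 332 to 386 that were nearly all PAX8. PAX2 and LRP2 had no row. Of 9 urothelial markers 3 had a row. In FADU the squamous markers KRT5 (1340 to 2819 CPM) and TP63 (161 to 330) were present in all 6 siRNA libraries. In bulk RNA, fewer cells of a type and less RNA per cell cannot be told apart. The libraries held 17.8 to 25.4 M reads on genes.

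In FADU cells hypoxia was compared with normoxia, with Scramble-si in both. A gene was called where its fold reached 1.3 and its limma p, before adjustment, fell below 0.05, and adjusted p-values are Benjamini-Hochberg over all tested genes. Log2 differences are of log2(CPM + 1), which understates changes of genes at low level. Hypoxia raised 1 and lowered 2 of the 9 members: CLDN1 rose, and CLDN4 and MARVELD2 fell. Among all 16324 tested genes 12.4% were called higher and 12.5% lower, and 19.4% in either direction by adjusted p. CLDN1, a sealing claudin, measured 47.5 and 48.7 CPM in normoxia and 72.8 and 95.0 in hypoxia, with no overlap, a 1.75-fold rise (log2 difference 0.78, SE 0.15, adjusted p = 0.0129). CLDN4, which limits the passage of sodium, measured 38.7 and 38.0 in normoxia and 15.9 and 20.8 in hypoxia, a 2.09-fold fall (log2 difference -1.04, SE 0.20, adjusted p = 0.0133). MARVELD2, the protein of tricellular corners, measured 53.8 and 57.4 in normoxia and 37.1 and 34.8 in hypoxia, 1.55-fold lower (log2 difference -0.62, SE 0.08, adjusted p = 0.00292). The groups did not overlap in any member, called or not, so the lack of overlap does not set these 3 genes apart. The share of all genes without overlap was not computed. CLDN7 stood just under the fold (85.3 and 85.1 against 62.6 and 69.4, log2 difference -0.36, adjusted p = 0.0151). CLDN7 was at -0.44 without FADU hypoxia replicate 2, which left 1 hypoxic library. TJP3, with 113 and 65 reads in normoxia and 28 and 26 in hypoxia, gave -1.09 with an SE of 0.51 (adjusted p = 0.164) and was not called in limma, but was called in edgeR on whole reads (-1.60) and in limma without METTL4-si replicate 1 or METTL4-si replicate 2. CLDN12 (0.33), F11R (0.27), TJP1 (0.17) and OCLN (0.08) did not pass on this log2 scale. Without FADU normoxia replicate 1 and FADU METTL4-si replicate 1, which left 1 normoxic library, TJP3 was at -0.81. Without FADU normoxia replicate 2 CLDN12 was at 0.39 and F11R at 0.38. The 6 general epithelial markers summed to 4331 and 3859 in normoxia, 2593 and 2640 in hypoxia and 4140 and 2090 in METTL4-si, and their part in the member values was not tested.

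The same hypoxic controls served the next question, what differs in hypoxic FADU cells under METTL4-si, so these values share samples with the ones above. In the libraries labelled METTL4-si 5 of the 9 members were higher and 0 lower: CLDN4, CLDN7, OCLN, MARVELD2 and TJP3. Over all tested genes 15.2% were called higher and 16.8% lower, and 27.8% in either direction by adjusted p, by which 4 members passed. The median log2 difference of the members was 0.54, that of all genes 0.02. CLDN4 measured 15.9 and 20.8 CPM in control and 71.3 and 47.5 in METTL4-si, 3.24-fold higher (log2 difference 1.63, SE 0.20, adjusted p = 0.00176). MARVELD2 went from 37.1 and 34.8 to 66.9 and 63.5, 1.81-fold (0.84, SE 0.08, adjusted p = 0.000651). CLDN7, a claudin of many simple and stratified epithelia, went from 62.6 and 69.4 to 99.1 and 103.2, 1.53-fold (0.61, SE 0.07, adjusted p = 0.00161). OCLN measured 34.5 and 33.2 in control and 51.2 and 48.3 in METTL4-si, 1.47-fold higher (0.54, SE 0.07, adjusted p = 0.00248). None of the 5 called members overlapped between the groups, and neither did TJP1 and F11R, which were not called. The lack of overlap thus does not set the called members apart, and its share over all genes was not computed. TJP3 read 1.26 and 1.19 in control and 10.0 and 2.36 in METTL4-si, a log2 difference of 1.45 (SE 0.51, adjusted p = 0.0658). Its high value came from the library with high luminal markers, and without that library the difference was 0.60. TJP1 was lower, 190 and 202 against 256 and 250, but by less than the fold (-0.37, adjusted p = 0.00590). TJP1 passed the fold in edgeR (-0.38), without FADU hypoxia replicate 2 (-0.39) and without METTL4-si replicate 2 (-0.41). CLDN1 (-0.13), CLDN12 (0.07) and F11R (-0.05) did not pass. Without FADU normoxia replicate 1 and METTL4-si replicate 1, CLDN4 was at 1.34, MARVELD2 at 0.80, CLDN7 at 0.64 and OCLN at 0.50. That fit kept 1 METTL4-si library, so its spread came from the other groups and no call is read from it. Beside the calls with all libraries, the squamous markers (14 of 17 with a row) summed to 3762 and 4153 in control and 2485 and 2789 in METTL4-si. The fibroblast markers (2 of 8 with a row) summed to 4.403 and 5.06 in control and 116 and 5.87 in METTL4-si. The part of the luminal, squamous and fibroblast markers in the member values was not tested.

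**Figure D1:**
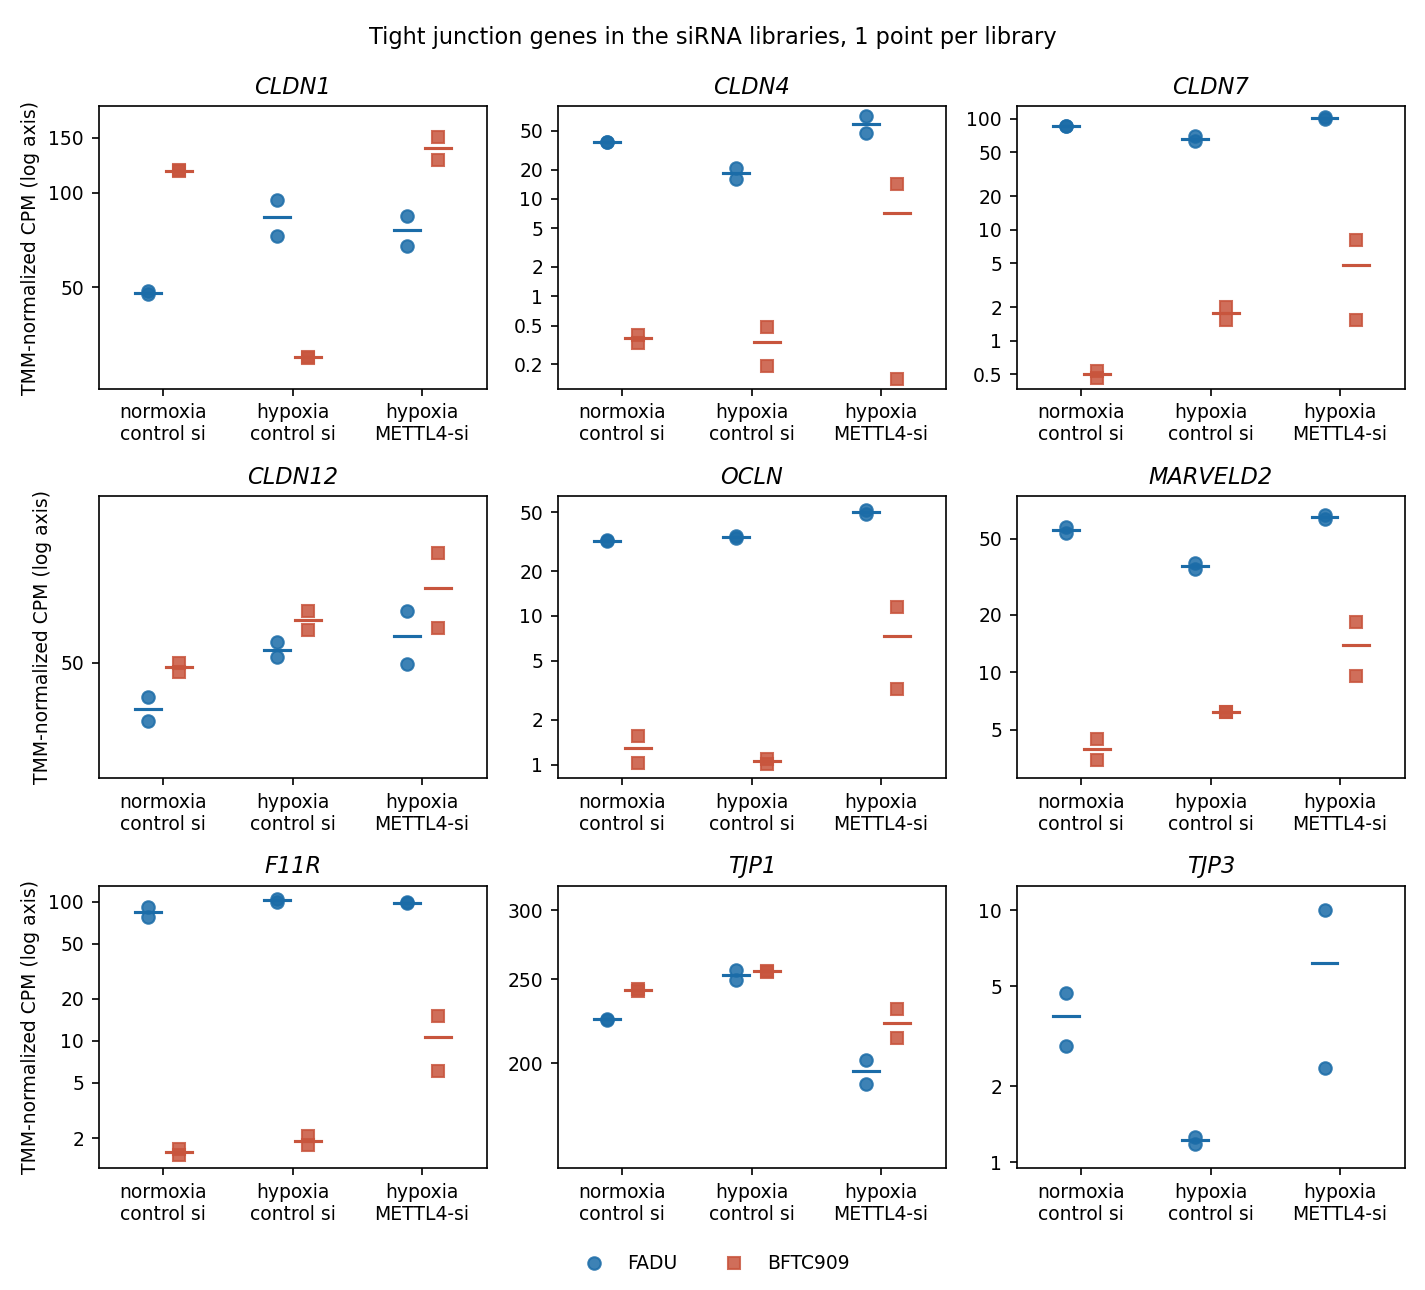
TMM-normalized CPM (log axis) of each tight junction gene in the siRNA libraries of FADU (circles) and BFTC909 (squares), 1 point per library and a short line at the mean of the 2. CLDN1 moved oppositely with hypoxia in the 2 lines, and CLDN4, CLDN7, OCLN, MARVELD2 and F11R lay far lower in BFTC909 than in FADU.

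In BFTC909 cells hypoxia lowered 1 and raised 0 of the 7 members that passed the filter on low values (a value of 1 or more in 2 libraries or more). CLDN1 was the gene that fell, from 117.5 and 118.1 CPM in normoxia to 29.7 and 30.05 in hypoxia, 3.94-fold (log2 difference -1.94, SE 0.09, adjusted p = 1.38e-05). The replicates of each group lay within 1 CPM of each other. Among all 14869 tested genes 19.5% were called higher and 19.2% lower, and 36.2% by adjusted p in either direction. Of the genes called, 50.3% were higher, and 61.0% once each library was centred on its median. CLDN7 was at 12 and 11 reads in normoxia and 42 and 32 in hypoxia, a log2 difference of 0.88 (SE 0.50, adjusted p = 0.190). MARVELD2 measured 4.48 and 3.48 against 6.22 and 6.21 (0.54, SE 0.26, adjusted p = 0.127). Both genes were higher in both hypoxic libraries. The fit shares its spread with the METTL4-si pair, which varied in both genes. Without METTL4-si replicate 1, and likewise without METTL4-si replicate 2, both genes were called, giving 2 higher and 1 lower. CLDN12 (0.26), F11R (0.17), TJP1 (0.07) and OCLN (-0.15) did not pass. CLDN4 had 9, 8, 10 and 4 reads in the normoxic and hypoxic libraries and was not tested. Fibroblast markers (7 of 8 with a row) summed to 1038 and 1134 in normoxia, 4493 and 4698 in hypoxia and 2570 and 2747 in METTL4-si, and their part in the values of this comparison and the next was not tested.

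In hypoxic BFTC909 cells under METTL4-si, with the same hypoxic controls as above, 4 of the 7 tested members were higher and 0 lower: CLDN1, OCLN, MARVELD2 and F11R. All 4 passed by adjusted p too. Over all tested genes 15.7% were called higher, 12.9% lower and 24.9% by adjusted p in either direction, and the higher share of calls was 54.9%, or 39.2% after median centring. The members' median log2 difference was 0.99 and that of all genes 0.01. CLDN1 rose from 29.7 and 30.05 to 151 and 127 CPM, 4.66-fold (log2 difference 2.18, SE 0.09, adjusted p = 2.08e-05). Both values exceeded the normoxic 117.5 and 118.1. The other members that passed were of low level and uneven between the 2 libraries. F11R measured 1.78 and 2.05 in control and 6.10 and 15.2 in METTL4-si replicates 1 and 2 (1.88, SE 0.33, adjusted p = 0.00563). OCLN measured 1.01 and 1.10 against 3.24 and 11.5 (1.83, SE 0.44, adjusted p = 0.0175). MARVELD2 measured 6.22 and 6.21 against 9.61 and 18.3 (0.99, SE 0.26, adjusted p = 0.0251). In each of the 3 genes both METTL4-si libraries lay above both controls, and replicate 2 was the higher one. The share of all genes separated in this way was not computed. CLDN7 read 2.02 and 1.53 against 1.55 and 8.16 (0.80, SE 0.50, adjusted p = 0.260) and CLDN4 had 10 and 4 reads against 3 and 284, so in both only replicate 2 was high. TJP1 was 255 and 255 against 231 and 214 (-0.20, adjusted p = 0.0483, under the fold), and CLDN12 overlapped (0.17).

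METTL4-si replicate 2 of BFTC909 was also the library with high epithelial and luminal markers. KRT8, a keratin of simple epithelia, was 715 CPM there and 5.02 in replicate 1, KRT18 379 against 24.2, EPCAM 26.5 against 1.69 and GREB1 121 against 10.6. The 3 of 6 general epithelial markers with a row summed to 84.4 and 82.5 in normoxia, 21.2 and 21.4 in hypoxia and 31.0 and 1121 in METTL4-si. Without METTL4-si replicate 2, which left 1 METTL4-si library, CLDN1 was at 2.30, F11R at 1.28, OCLN at 1.04 and MARVELD2 at 0.56. CLDN7 was then at -0.12. Without replicate 1 in place of 2, F11R was at 2.47, OCLN at 2.61, MARVELD2 at 1.42 and CLDN7 at 1.73. In both fits the spread came from the other groups, so no call is read from them.

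**Figure D2:**
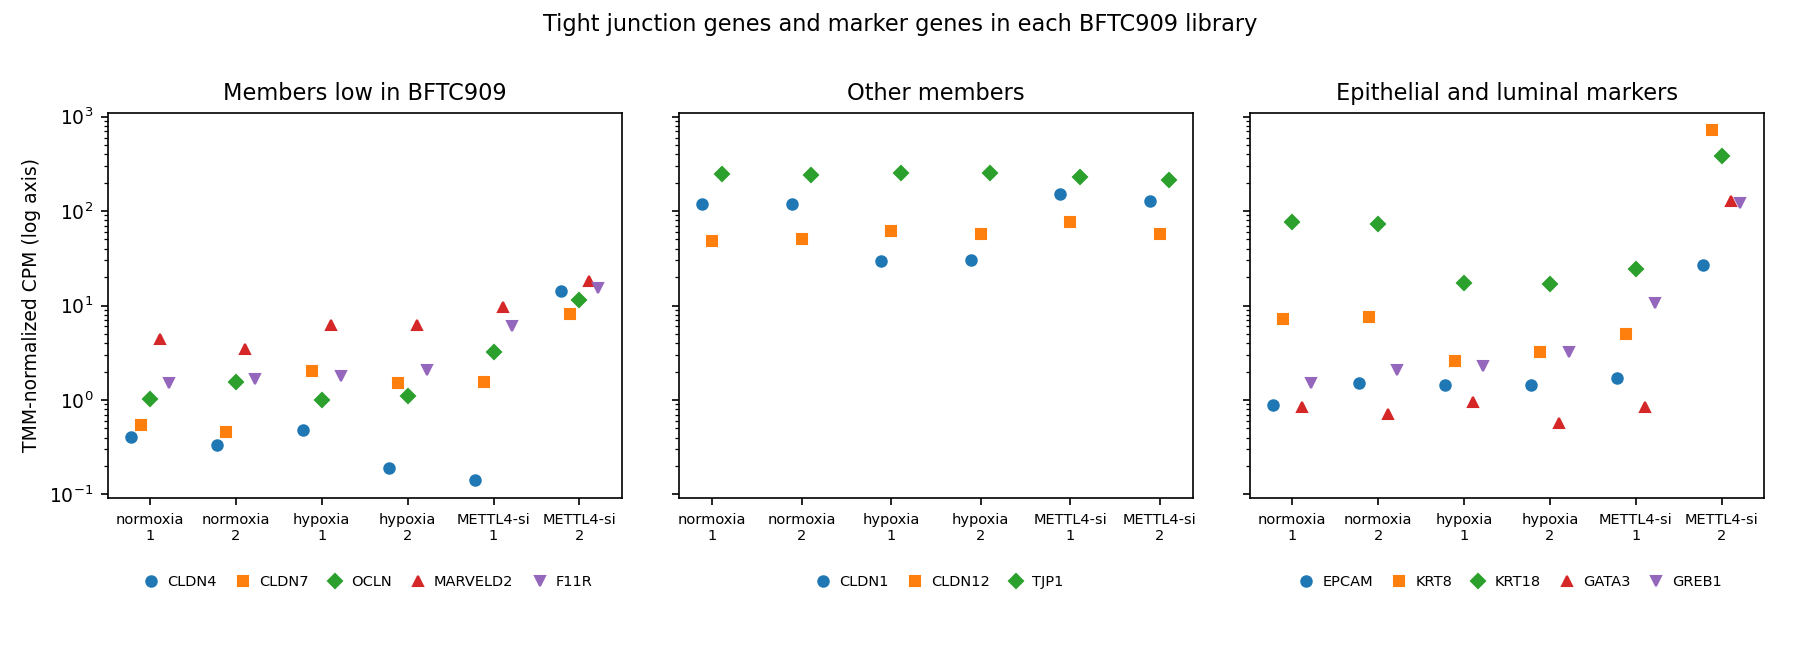
TMM-normalized CPM (log axis) of tight junction genes low in BFTC909, of the other tight junction genes, and of epithelial and luminal markers, 1 point per gene and library. METTL4-si replicate 2 is high for the markers (KRT8 715, GATA3 128) and for CLDN4, which had 284 reads there and 3 in replicate 1, while CLDN1 and TJP1 do not single it out.

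In FADU cells at 18% O2 the METTL4 vector raised METTL4 from 35.4 and 32.7 to 157.5 and 138.6 CPM. Of the 9 members 0 were higher and 4 lower: CLDN1, CLDN4, OCLN and TJP3, all by adjusted p too. Over 15644 tested genes 8.3% were called higher, 11.1% lower and 18.5% by adjusted p in either direction. The members' median log2 difference was -0.32 and that of all genes 0.01. CLDN1 fell from 63.5 and 63.5 to 14.6 and 15.6 CPM, 4.198-fold (log2 difference -2.00, SE 0.06, adjusted p = 2.23e-11). CLDN4 fell from 30.6 and 33.2 to 13.2 and 10.6, 2.68-fold (-1.36, SE 0.09, adjusted p = 7.11e-08). OCLN fell from 30.4 and 31.3 to 22.5 and 19.0, 1.48-fold (-0.55, SE 0.10, adjusted p = 0.000458). TJP3 had 63 and 90 reads in control and 12 and 10 with METTL4 or 3.01 and 4.19 CPM against 0.596 and 0.453 (-1.58, SE 0.18, adjusted p = 1.31e-05). No member overlapped between the groups, called or not, so this does not set the called ones apart. How many of all genes lacked overlap was not computed. CLDN7 (-0.32), CLDN12 (-0.25), F11R (-0.24) and MARVELD2 (-0.21) were lower with adjusted p from 0.000293 to 0.0281 but under the fold, and TJP1 was at 0.10 (adjusted p = 0.0675). The general epithelial markers, 6 of 6 with a row, summed to 3843 and 3817 in control and 2698 and 2603 with METTL4, and their part in these values was not tested.

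The RP11-390F4.3 vector, read against the same control libraries, gave 0 higher and 2 lower members, MARVELD2 and TJP3. The columns of these cells were assigned by elimination. Over all genes 16.8% were called higher, 12.8% lower and 29% by adjusted p in either direction, and the higher share of calls, 56.7%, became 41.0% after median centring. MARVELD2 fell from 53.7 and 51.3 to 37.9 and 32.5 CPM, 1.49-fold (log2 difference -0.57, SE 0.07, adjusted p = 1.55e-05). TJP3 fell from 63 and 90 reads to 33 and 51 (-0.74, SE 0.18, adjusted p = 0.00377). CLDN1 measured 63.5 and 63.5 in control and 65.9 and 68.6 here (0.08, adjusted p = 0.264), and CLDN4 30.6 and 33.2 against 37.01 and 39.5 (0.26, adjusted p = 0.0318, under the fold). CLDN12 (0.32), CLDN7 (0.14), F11R (-0.03), TJP1 (-0.11) and OCLN (-0.20) were within the fold. Replicate 2 carried more luminal marker RNA than replicate 1 (GATA3 16.5 against 2.98). The 8 of 16 luminal markers with a row summed to 262 against 186, with 176 and 175 in control and 142 and 138 with METTL4. Without replicate 2, which left 1 RP11-390F4.3 library, MARVELD2 was at -0.46 and TJP3 at -0.97. CLDN12 was at 0.38 without control replicate 1, which left 1 control library. The 6 general epithelial markers summed to 3843 and 3817 in control and 3063 and 3055 here, the squamous markers (14 of 17 with a row) to 4133 and 4029 against 3448 and 3258, and the 1 of 7 intestinal markers with a row was 4.15 and 4.14 against 11.6 and 13.6. The part of these markers in the member values was not tested.

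**Figure D3:**
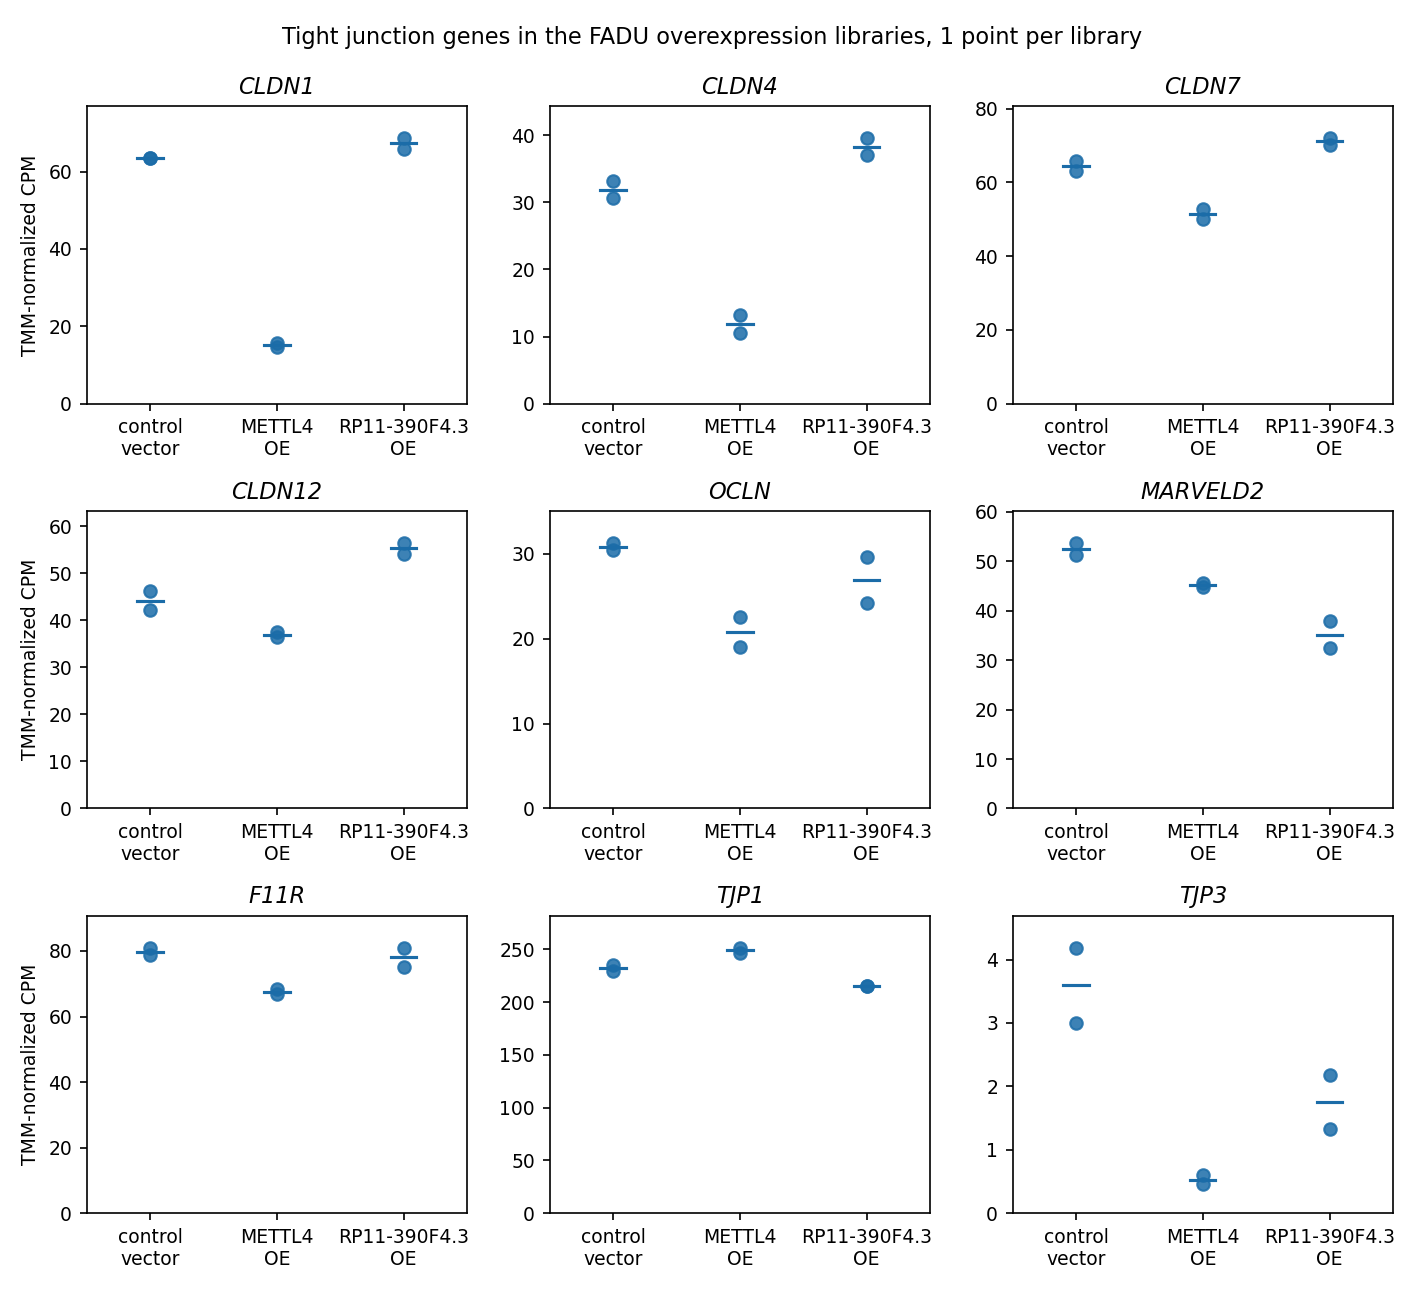
TMM-normalized CPM of each tight junction gene in FADU cells with the control, METTL4 or RP11-390F4.3 vector, 1 point per library and a short line at the mean of the 2. CLDN1 drops from 63.5 to 14.6 and 15.6 with METTL4 and stays at 65.9 and 68.6 with RP11-390F4.3, while MARVELD2 is lowest with RP11-390F4.3.

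In hypoxic FADU cells with mutant METTL4, 5 of 9 members were lower by 1.3-fold or more in both clones than in the CRISPR control, and 0 were higher. With 1 control library there is no replicate check and no test. Among all 15719 genes listed, 8.94% were past the fold upward and 11.8% downward in both clones. CLDN1 measured 41.9 CPM in control and 23.0 and 18.7 in clones 1 and 2, log2 ratios of -0.84 and -1.12. TJP1, the scaffold, measured 153.8 against 100.5 and 106.7 (-0.61 and -0.52). CLDN12 was at 32.1 against 22.4 and 20.5, CLDN4 at 21.1 against 15.3 and 15.0, and TJP3 at 103 reads against 33 and 61. F11R passed in clone 1 alone (60.8 against 42.4 and 48.6). The other members differed less, with OCLN at 23.2 against 19.1 and 19.5, CLDN7 at 37.2 against 36.98 and 36.5 and MARVELD2 at 19.6 against 20.4 and 19.7. The members' median log2 ratios were -0.50 and -0.47, against 2.08e-05 and -0.00989 over all genes. METTL4 RNA itself was 12.5 in control and 15.9 and 10.6 in the clones. The 6 general epithelial markers summed to 1975 in control and 1237 and 1606 in the clones, and the squamous markers (14 of 17 with a row) to 2624, 1843 and 2218, and their part in these ratios was not tested.

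**Figure D4:**
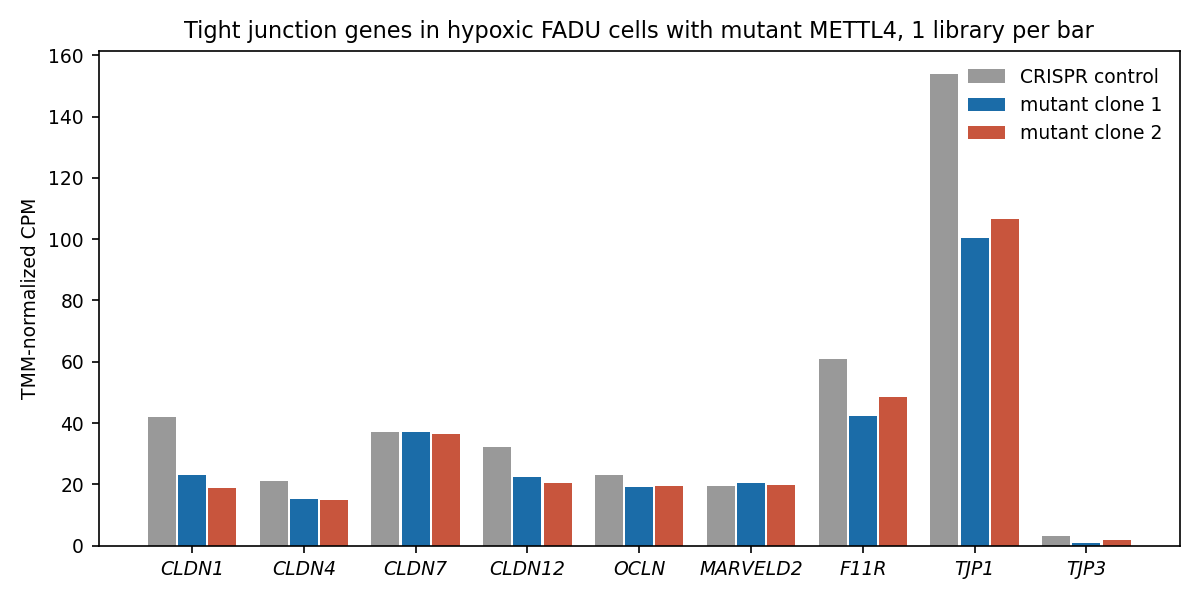
TMM-normalized CPM of each tight junction gene in hypoxic FADU cells, 1 bar per library, for the CRISPR control and METTL4 mutant clones 1 and 2. TJP1 (153.8 against 100.5 and 106.7) and CLDN1 (41.9 against 23.0 and 18.7) are lower in both clones, and CLDN7 and MARVELD2 stay near the control.

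Side by side, CLDN1 had the widest range of differences: 0.78 with hypoxia in FADU, -1.94 with hypoxia in BFTC909, -0.13 and 2.18 under METTL4-si in FADU and BFTC909, and -2.00 and 0.08 with METTL4 and RP11-390F4.3. CLDN4 was called in each FADU comparison apart from RP11-390F4.3. In limma with all libraries TJP1 was within 1.3-fold in the 6 tested comparisons, from -0.37 to 0.17, apart from the alternatives named for METTL4-si in FADU, and CLDN12 from -0.25 to 0.33, apart from FADU hypoxia without normoxia replicate 2 and RP11-390F4.3 without control replicate 1. F11R was called in 1 of the 6, in BFTC909 under METTL4-si.

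Other tight junction genes were read from a list of 48, of which 36 had a row in at least 1 table. Their counts were not tested against the shares over all genes. These shares were 12.4% higher and 12.5% lower with hypoxia in FADU, and 15.2% and 16.8% under METTL4-si. With hypoxia in FADU 4 of 33 tested rose and 3 fell, led upward by CGNL1 (paracingulin, which ties the junction to actin and myosin, log2 difference 1.53), AMOTL1 (an angiomotin, 1.32) and CXADR (a cell adhesion receptor, 0.59) and downward by PARD6B (a polarity protein, -1.40), LSR (angulin 1, which recruits tricellulin, -0.63) and CRB3 (an apical polarity protein, -0.55). Under METTL4-si in FADU 8 of 33 rose and 5 fell, led by PARD6B (1.71), CGN (cingulin, 1.21) and ILDR1 (angulin 2, 0.99), and by CGNL1 (-1.44), AMOTL1 (-1.23) and YBX3 (a ZO-1 binding factor, -0.56). PARD6B measured 192 CPM in METTL4-si replicate 1 and 47.8 in replicate 2, against 29.4 and 27.9 in control, and it failed by adjusted p in both comparisons (0.113 and 0.0539). LSR, the partner of MARVELD2, measured 113 and 96.4 under METTL4-si against 56.9 and 57.5 in control and 92.5 and 85.9 in normoxia. It was thus low in the same hypoxic control libraries in which MARVELD2 was low.

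With hypoxia in BFTC909 4 of 24 rose and 6 fell, led by PATJ (a polarity scaffold, 0.78), PARD3B (0.71) and CLDN11 (0.59), and by ILDR2 (angulin 3, -1.25), CLDN16 (a claudin of the kidney tubule, -1.02) and AMOTL1 (-0.87). Under METTL4-si 9 of 24 rose and 1 fell, led by PARD6B (2.54), CLDN16 (2.53) and AFDN (afadin, which links nectins to actin, 0.80), with AMOTL2 falling (-1.09). CLDN16 measured 1.40 and 0.812 CPM in control and 12.2 and 10.0 in METTL4-si, high in both libraries, while PARD6B was 3.76 and 2.68 against 5.44 and 90.6, high in the library with the epithelial markers (adjusted p = 0.0947). With the METTL4 vector 4 of 30 rose and 7 fell, led by AMOTL1 (1.03), AMOTL2 (1.00) and VASP (an actin regulator, 0.40), and by CGN (-1.13), AMOT (-0.97) and ILDR1 (-0.87). With RP11-390F4.3 6 of 30 rose and 4 fell, led by CGNL1 (1.32), AMOTL1 (1.06) and VASP (0.73), and by CGN (-0.44), PARD6B (-0.42) and PARD3B (-0.41). In the mutant clones 1 of 32 was higher and 8 lower past the fold in both. MPDZ, a scaffold with many PDZ domains, was at 95.5 CPM against 40.2 and 41.6. Over all genes the shares higher and lower were 19.5% and 19.2% with hypoxia in BFTC909 and 15.7% and 12.9% under METTL4-si. They were 8.3% and 11.1% with the METTL4 vector, 16.8% and 12.8% with RP11-390F4.3, and 8.94% and 11.8% in both clones.

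Transcription factors known to act on junction genes changed in different sets, out of 18 with a row, and every factor called is given here with its log2 difference. With hypoxia in FADU 5 of 17 tested rose and 4 fell, against 12.4% and 12.5% of all tested genes. No count of factors was tested against such shares. The repressors went apart, SNAI2 rising (30.4 to 54.6 CPM on average, 0.83) and SNAI1 falling (1.22 to 0.475 CPM, -0.59). EHF (1.66), OVOL1 (0.98), GRHL1 (0.83) and KLF4 (0.57) rose, and SOX2 (-2.13), GRHL3 (-0.64) and ELF3 (-0.39) fell. Under METTL4-si in FADU 4 of 17 rose and 4 fell, against 15.2% and 16.8% of all tested genes. Here SNAI2 (-1.32) was lower and SNAI1 (0.83) higher, with SOX2 (1.73), GRHL3 (0.76) and KLF4 (0.59) also higher and EHF (-1.82), TCF3 (-0.41) and KLF5 (-0.40) lower. GRHL3 had 6 and 6 reads in the hypoxic controls and 43 and 16 in METTL4-si replicates 1 and 2. Replicate 1 was the library with high luminal markers, and their part was not tested. By limma adjusted p, GRHL3 failed with hypoxia (0.0796) and TCF3 under METTL4-si (0.0698).

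In BFTC909 hypoxia raised 3 and lowered 2 of 9, against 19.5% and 19.2% of all tested genes. The repressors SNAI1 (1.42) and ZEB2 (0.77) and KLF5 (0.38) rose, and SNAI2 (-0.65) and GRHL1 (-0.92) fell. Under METTL4-si 3 were higher and 2 lower, against 15.7% and 12.9% of all tested genes. GRHL1 (1.51), KLF4 (0.77) and the repressor ZEB1 (0.46) were higher, and SNAI1 (-1.89) and KLF5 (-0.42) lower. GRHL1 measured 3.94 and 8.31 CPM and KLF4 15.1 and 23.1 in METTL4-si replicates 1 and 2. Replicate 2, the higher in both, was the library with high epithelial markers, and their part was not tested. ZEB1 was higher in replicate 1 (149 against 121). With the METTL4 vector 4 of 16 rose and 5 fell, against 8.3% and 11.1% of all tested genes. The repressors SNAI2 (1.22) and ZEB1 (1.13, from 1.39 to 4.23 CPM), TWIST1 (0.55) and OVOL1 (0.44) rose, and ELF3 (-1.53), SOX2 (-0.82), EHF (-0.74), GRHL1 (-0.59) and KLF4 (-0.45) fell. With RP11-390F4.3 8 of 16 rose and 3 fell, against 16.8% and 12.8% of all tested genes. EHF (1.67), OVOL1 (1.07), KLF4 (1.02), GRHL1 (0.99), SNAI1 (0.84), TWIST1 (0.62), KLF5 (0.43) and SNAI2 (0.40) rose, and SOX2 (-0.84), ELF3 (-0.47) and ESRP2 (-0.38) fell. In the mutant clones 1 of 15, EHF, was higher in both and 3 were lower, ELF3, KLF4 and GRHL1. Over all genes these shares were 8.94% and 11.8%. ELF3 measured 56.9 CPM in control and 22.1 and 23.9 in the clones.

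Genes outside the members were ranked by how closely their log2 values followed the mean of the 8 members with a row in all 3 replicated tables, each gene centred on its mean in its table. Over 18 libraries and 9528 genes the closest were SYT12 (Pearson r = 0.949), TNK2 (0.943), LRP5 (0.937), ABCA2 (0.937) and DDR1 (0.934). Over the 6 BFTC909 libraries and 12357 genes, those among the closest included SOX4 (0.998), ABCA2 (0.996), SYT12 (0.996) and DBNDD1 (0.995). Libraries of a table share their scaling and fall into groups of 2, so these values describe a likeness of pattern and carry no test.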

How the data were processed

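RNA-seq was done on FADU and BFTC909 cells with the Kapa HyperPrep RiboErase stranded kit, 150-base pairs on a NextSeq instrument. The authors used Trim Galore for trimming, HISAT2 for alignment to hg19, htseq-count for counting and edgeR for scaling. Versions, settings and annotation are not given in the sources used here. What the authors deposited is a signal, the TMM-normalized CPM per gene. In the 3 replicated tables all of them were whole reads times 1 constant per library (tolerance 0.1). In the mutant table rows that name no gene (40.9% to 43.0% of the sum) were left out, and every gene had at least 10 reads. The authors' own tables of fold changes and p-values were not used.

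The fold and p thresholds of the call are those of the study, applied here to limma in place of the authors' edgeR. Groups came from the labels and column names, and RP11-390F4.3 columns by elimination. limma 3.58.1 (R 4.3.3, eBayes with trend) was run on log2(value + 1) for genes that reached 1 in 2 libraries or more, all 6 libraries of a table sharing the spread. With 2 libraries per group no permutation could give a small p-value. edgeR 4.0.16 and DESeq2 1.42.0 on the whole reads, pseudocounts of 0.1 and 5, other filters, scalings and thresholds, a replicate block and leaving out each library were alternatives. Leaving out FADU normoxia replicate 1 and METTL4-si replicate 1 together was chosen after seeing the data. Where a compared group kept 1 library, the spread came from the other groups, so calls there are no check on that group. The fits were tested on simulated data. Gene positions came from GENCODE, and promoters from RefSeq. Python 3.11.15, numpy 2.4.6, pandas 2.3.3 and matplotlib 3.10.9 were used.

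The members and all lists (other tight junction genes, transcription factors, markers) were chosen with earlier results of these data known. Named are all members, the listed transcription factors that were called, and up to 3 other tight junction genes per direction with the largest called difference and a mean of at least 2. LSR under METTL4-si, and the markers shown, were picked after their values had been seen. The numbers of replicates were not taken as pairs, since their differences correlated at 0.648 between FADU normoxia and METTL4-si and at -0.0652 to 0.154 elsewhere.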

Additional observations from a re-analysis of the deposited data

Results flagged for a closer look

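Several members had log2 differences of opposite sign in FADU and BFTC909 cells, with no overlap between the compared groups in either line. The share of all genes with this pattern was not computed, so the pattern does not set these members apart. Only CLDN1 was called in both lines. The difference between the lines was not tested, since their tables were scaled separately. With hypoxia CLDN1 was at a log2 difference of 0.78 in FADU and -1.94 in BFTC909, both called. CLDN7 was at -0.36 and 0.88 and MARVELD2 at -0.62 and 0.54, of which only the fall of MARVELD2 in FADU was called. Under METTL4-si F11R was at 1.88 in BFTC909, called. In FADU it was at -0.049 (97.3 and 99.6 CPM against 99.7 and 104 in control), not called and close to no change.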

How the results depend on the processing

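Among values of single genes, 867 kept their side of the threshold under an alternative, 28 passed it newly and 13 no longer passed. Of the called values 0 changed direction, but direction was not checked for values that stayed uncalled. For example, uncalled CLDN1 under METTL4-si in FADU went from -0.13 to 0.02 without METTL4-si replicate 1. Counts of called members at 2-fold were 1 (main value 3) for FADU hypoxia, 2 (5) for FADU METTL4-si and 0 (2) for RP11-390F4.3 in limma, where both called genes had an unadjusted p under 0.05. For BFTC909 hypoxia (1) the count was 2 with a pseudocount of 0.1 or median centring and 3 with the compared groups alone or DESeq2. For BFTC909 METTL4-si (4) a mean of at least 5 left 2, for RP11-390F4.3 (2) that filter and a pseudocount of 5 each left 1, and for the mutants (5) a pseudocount of 5 left 3. Leaving out 1 library gave 3 to 5, 4 to 6, 1 to 3, 4 to 5, 4 to 4 and 2 to 3 members in the order FADU hypoxia, FADU METTL4-si, BFTC909 hypoxia, BFTC909 METTL4-si, METTL4 and RP11-390F4.3.

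Counts over the other tight junction genes, in that order 7, 13, 10, 10, 11 and 10, were 3, 4, 2, 3, 3 and 2 at 2-fold and 4 to 11, 11 to 16, 8 to 11, 9 to 12, 10 to 12 and 8 to 10 without 1 library. A pseudocount of 5 gave 4 for FADU hypoxia, 5 for METTL4 and 5 for RP11-390F4.3, and a mean of at least 5 gave 6 for METTL4. The FADU hypoxia count was 4 without hypoxia replicate 2 and 11 without METTL4-si replicate 2. With the replicate numbers as a block the members called were 4, 5, 1, 4, 4 and 2 and the other genes 7, 15, 10, 10, 11 and 10. TJP3 in FADU hypoxia, not called in limma, was called with the block (-1.09), a pseudocount of 0.1 (-1.52), the compared groups alone, edgeR (-1.60) or DESeq2 (-1.61), and without METTL4-si replicate 1 or 2. TJP1 under METTL4-si in FADU was called with median centring (-0.41), edgeR (-0.38) and without FADU hypoxia replicate 2 or METTL4-si replicate 2. CLDN7 under METTL4-si in BFTC909 was called in DESeq2 (1.42). TJP3 under METTL4-si in FADU was no longer called without FADU hypoxia replicate 1 (1.48) or 2 (1.43), and was at 2.31 without METTL4-si replicate 2. The cause was not tested in any of these. Where a filter or fold is stricter, fewer genes can pass. Counts and calls from fits in which a compared group kept 1 library do not measure the spread of that group. Depth limits TJP3 in FADU and CLDN4, CLDN7, OCLN and F11R in BFTC909, which had under 50 reads in many libraries.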
